A study of Mus musculus with 4 samples.

Results

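White adipocytes hold triglyceride in a lipid droplet, and the genes described here are the ones such a cell uses to make, coat, fill and empty that droplet and to signal to other tissues. They comprise 34 listed genes, of which 33 were on the array, with 56 probes; Pck1 was not among the gene names of the array. The members were taken by gene name from a list, out of 27974 named genes. The list was chosen with earlier results of these data known. Counts of members beside the share of all genes are therefore descriptions and no independent support. Where several probes name a gene, the one brightest on average over the arrays stands for it. The levels come from the prostate as a whole, and the share of adipocytes or of surrounding fat in each sample was not measured.

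RNA of mouse prostate was hybridised to Agilent arrays with 1 colour, Cy3, in 4 groups of male mice aged 8 weeks, with 1 array per group. C57BL/6 mice, the normal counterpart, received olive oil or γ-TmT, a mixture of tocopherols (forms of vitamin E) rich in γ-tocopherol, at 600 mg/kg by gavage. TRAMP mice received the same oil or the same dose of TmT. TRAMP mice bear a transgene in which the probasin promoter of the rat drives the SV40 early region in prostate epithelium, and the labels do not give their background strain. Each group had 3 mice on AIN-76A diet, fasted overnight before the gavage and killed 12 hours after it. The labels do not say whether an array held RNA of 1 mouse or of a pool. No array probe carried SV40 in its name, so the genotype labels were not checked through the transgene.

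With 1 array per group there was no replicate check, and no p-value could be given for a pair of arrays. A level is the log2 of the processed signal minus the log2 of the 75th percentile of its array. A difference between a pair of arrays is a difference of such levels in log2 units, and its ± is the scanner software's error of the spots, about 0.20 for most members. That error leaves out the difference between mice, and the number of arrays limits the precision. Spots well above background made up 63.9% to 74.1% of each array, and the array of TRAMP mice after TmT was the dimmest. All 14 luminal and secretory markers of the prostate on the array were well above background on each of the 4 arrays. Of the 33 genes, 28 were well above background on all 4 arrays, 31 on at least 2, and Lep on none. In bulk tissue, fewer cells of a type and less RNA per cell cannot be told apart.

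Fatty acids reach an adipocyte when lipoprotein lipase cuts them from circulating triglyceride, or are built inside the cell from citrate and glucose carbon. Acyltransferases join them to glycerol, perilipins and CIDE proteins coat and fuse the droplet, and lipases break it down again in fasting. PPARγ and C/EBPα are the transcription factors that start and maintain this program, and the cell secretes hormones such as adiponectin and leptin. Prostate epithelium makes fatty acids and cholesterol of its own, so enzymes such as fatty acid synthase are not particular to fat.

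The stretch of 250 bases before the RefSeq start of transcription (build GRCm38.p6) is shown for 6 genes that stand for the patterns below, 5′ to 3′ along the gene. Adipoq, Retn and Cidec were high on the array of TRAMP mice after oil, Plin (Plin1 in RefSeq) carried 2 matches to the C/EBP motif, Acly was high on both TRAMP arrays and Sncg was lower in TRAMP mice. Capitals mark matches to TTGCNNAA (the C/EBP motif), AGGTCA (a nuclear receptor half-site) or TATAAA (the TATA box) on either strand.
Adipoq, chr16:23146286-23146535, plus strand: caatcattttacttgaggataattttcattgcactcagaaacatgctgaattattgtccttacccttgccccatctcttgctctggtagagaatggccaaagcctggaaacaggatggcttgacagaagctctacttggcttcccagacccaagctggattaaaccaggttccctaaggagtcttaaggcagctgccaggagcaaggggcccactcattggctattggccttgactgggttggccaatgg
Retn, chr8:3655520-3655769, plus strand: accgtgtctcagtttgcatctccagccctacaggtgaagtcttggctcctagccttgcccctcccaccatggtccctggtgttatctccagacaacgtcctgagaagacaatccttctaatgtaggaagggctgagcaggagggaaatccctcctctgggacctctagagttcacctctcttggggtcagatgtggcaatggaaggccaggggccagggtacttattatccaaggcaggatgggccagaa
Cidec, chr6:113435761-113436010, minus strand: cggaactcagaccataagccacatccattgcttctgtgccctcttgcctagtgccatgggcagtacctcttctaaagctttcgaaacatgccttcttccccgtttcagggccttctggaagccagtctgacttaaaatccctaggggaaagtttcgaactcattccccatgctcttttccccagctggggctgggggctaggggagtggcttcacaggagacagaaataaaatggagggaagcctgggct
Plin, chr7:79732777-79733026, minus strand: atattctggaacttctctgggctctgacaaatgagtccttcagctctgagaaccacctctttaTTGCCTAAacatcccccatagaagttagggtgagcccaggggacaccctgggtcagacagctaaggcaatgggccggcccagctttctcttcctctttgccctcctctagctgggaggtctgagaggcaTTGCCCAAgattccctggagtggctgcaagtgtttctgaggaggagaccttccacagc
Acly, chr11:100528001-100528250, minus strand: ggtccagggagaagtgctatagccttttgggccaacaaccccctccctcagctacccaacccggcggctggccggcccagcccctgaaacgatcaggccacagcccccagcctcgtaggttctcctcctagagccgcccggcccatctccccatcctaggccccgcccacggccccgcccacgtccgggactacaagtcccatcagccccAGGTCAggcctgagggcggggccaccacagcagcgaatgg
Sncg, chr14:34374670-34374919, minus strand: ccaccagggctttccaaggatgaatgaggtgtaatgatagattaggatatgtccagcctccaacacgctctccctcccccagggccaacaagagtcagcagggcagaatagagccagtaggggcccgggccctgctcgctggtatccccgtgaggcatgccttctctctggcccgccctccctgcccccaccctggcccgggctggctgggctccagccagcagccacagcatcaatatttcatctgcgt
RefSeq promoters were matched for 22 of the 33 genes. TTGCNNAA was found in 2 of the 22, or 9.09%, against 9.55% of 27025 promoters, with matches 187 and 58 bases before the start of Plin and 1 match 55 bases before that of Lep. AGGTCA was found in 4, or 18.2%, against 13.8% of all promoters, namely Acly at 40, Aqp7 at 49, Elovl6 at 193 and Pparg at 28 bases before the start. TATAAA was found in 1, Cebpa, or 4.55% against 12.97%. CCAAT (the CCAAT box) was found in 5, or 22.7% against 34.5%, with matches 34, 27 and 7 bases before the start of Adipoq, and CACGTG (the E-box) in 1, Lipe, or 4.55% against 6.05%; these are not capitalised. These matches are descriptions of the letters in the window, and 4 of the 6 printed promoters, those of Adipoq, Retn, Cidec and Sncg, held none of the 3 capitalised motifs.

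After oil, white adipocyte and lipid storage genes were higher on the TRAMP array than on the C57BL/6 array. Of 31 genes well above background on both arrays, 20 exceeded C57BL/6 by 2-fold or more and 0 fell short of it by as much, where the shares of 18920 genes were 7.74% and 7.84%. The median difference was 1.51, from -0.73 for Slc2a4 to 3.50 for Cidec, and the median of all genes was -0.07. A difference above 0 was found for 29 of the 31, the exceptions being Slc2a4 and Sncg. After TmT the TRAMP array did not stand above the C57BL/6 array in this way: of 28 genes measured, 4 were at least 2-fold higher and 0 lower, against a background of 8.45% higher and 6.09% lower, and the median was 0.07.

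Within TRAMP mice, 16 of 28 measured genes were at least 2-fold lower after TmT than after oil and 0 were higher, against 4.86% of 17465 genes lower and 8.66% higher. The median difference was -1.32, from -3.59 for Fabp4 to 0.68 for Slc2a4, and the median of all genes was 0.10. Within C57BL/6 mice, 2 of 29 were at least 2-fold lower (Thrsp and Fabp4) and 1 was higher (Acvr1c), against 2.63% lower and 3.12% higher, with a median of -0.17. The other probes of Fabp4 gave -0.31 and -1.04 in that comparison. Normexp background correction gave -0.52 for Thrsp and 0.49 for Acvr1c there, both under 2-fold. The line difference after oil and the TmT difference in TRAMP mice both use the array of TRAMP mice after oil. That array held the highest level of 24 of the 28 genes above background on all 4 arrays, where it held the highest level of 22.0% of 16961 genes. The exceptions were Slc2a4, highest in C57BL/6 after oil, Sncg, highest in C57BL/6 after TmT, and Acly and, by its brightest probe, Acaca, highest in TRAMP after TmT.

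**Figure D1:**
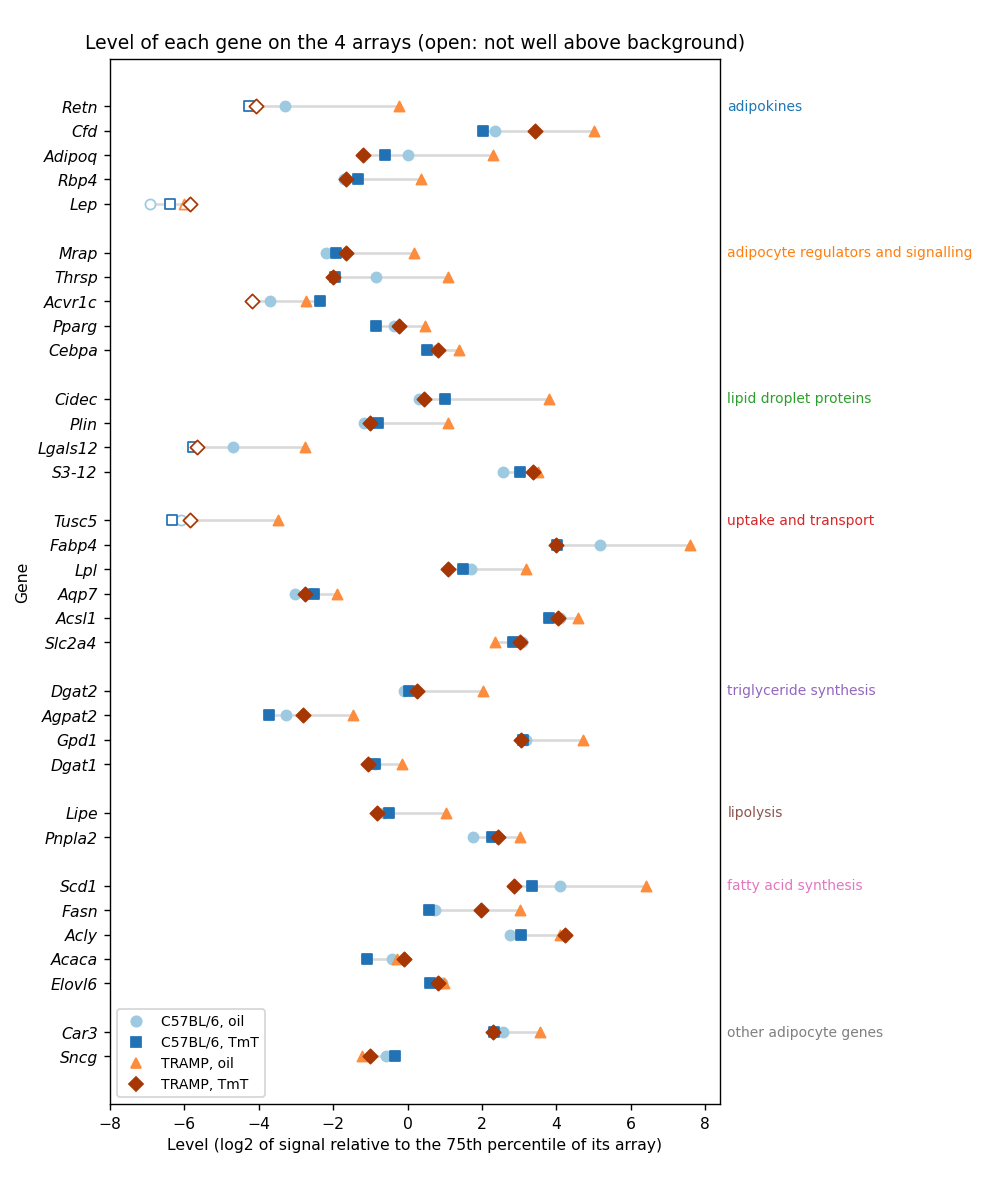
Level of each of the 33 genes (rows, by role) on the 4 arrays, as log2 of the signal relative to the 75th percentile of its array; each symbol is 1 array and open symbols were not well above background. The triangle of TRAMP after oil lies to the right of the other 3 symbols for 24 of the 28 genes above background on all arrays, while rows are different probes and are not compared with each other.

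The hormones secreted by fat had a median line difference of 2.47 after oil. Adipoq, which encodes adiponectin, had levels of 0.02 in C57BL/6 after oil, -0.59 in C57BL/6 after TmT, 2.29 in TRAMP after oil and -1.20 in TRAMP after TmT. Its TRAMP array after oil stood above the other 3, by 2.27 ± 0.20 over C57BL/6 after oil, and the TmT difference in TRAMP mice was -3.49 ± 0.21. The probe lies at chr16:23157576-23157635 (mm9).

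Retn, the gene of resistin, had a level of -3.29 in C57BL/6 after oil and -0.23 in TRAMP after oil, and its spots in C57BL/6 after TmT (-4.27) and TRAMP after TmT (-4.08) were not well above background. It was 3.06 ± 0.23 higher in TRAMP mice after oil and, in TRAMP mice, at least 9.86-fold lower after TmT. Such a bound compares the bright array with the dim spot itself or, if that is larger, with the faintest detected signal of the dim array.

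Cfd, which encodes adipsin (complement factor D), had levels of 2.36 in C57BL/6 after oil, 2.03 in C57BL/6 after TmT, 5.03 in TRAMP after oil and 3.43 in TRAMP after TmT. Both TRAMP arrays lay above both C57BL/6 arrays, by 2.67 ± 0.20 after oil and by 1.40 ± 0.20 after TmT. Rbp4, a carrier of retinol secreted by fat and liver, had levels of -1.71, -1.33, 0.36 and -1.67 in the same order of groups, so that 3 arrays lay close together and TRAMP after oil stood 2.08 higher than C57BL/6 after oil. Lep, the gene of leptin, was not well above background on any array although its probe was printed in 10 spots, so no level is given. Over these hormone genes, 4 of 4 measured were at least 2-fold higher in TRAMP mice after oil, against 7.74% of all genes. In TRAMP mice 3 of 3 measured were at least 2-fold lower after TmT, against 4.86% of all genes. The share after oil also stands beside the counts of the role groups below.

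Of the regulators and signalling proteins, 2 of 5 measured (Mrap and Thrsp) were at least 2-fold higher in TRAMP mice after oil. Pparg, the nuclear receptor that directs adipocyte differentiation, had levels of -0.36 in C57BL/6 after oil, -0.86 in C57BL/6 after TmT, 0.46 in TRAMP after oil and -0.24 in TRAMP after TmT. Its probe was printed in 10 spots, and the TRAMP arrays were 0.82 ± 0.06 higher after oil and 0.62 higher after TmT, both under 2-fold. Cebpa, the partner factor C/EBPα, had levels of 0.76, 0.51, 1.37 and 0.82 in that order, a difference of 0.61 after oil. Its dimmer probe gave -0.40 after oil, so the direction for Cebpa depended on the probe.

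Thrsp, a nuclear protein tied to the induction of fatty acid synthesis, had levels of -0.86 in C57BL/6 after oil, -1.95 in C57BL/6 after TmT, 1.09 in TRAMP after oil and -2.01 in TRAMP after TmT. Its level was lower after TmT in both lines, by -1.09 in C57BL/6 and -3.10 in TRAMP mice, and the TRAMP and C57BL/6 arrays after TmT differed by -0.06. Mrap, the accessory protein of the ACTH receptor, had levels of -2.20, -1.91, 0.17 and -1.66, with TRAMP after oil 2.37 above C57BL/6 after oil and the other 3 arrays close together. Acvr1c, the receptor ALK7 of activin ligands in fat, had levels of -3.69, -2.36 and -2.72 and was not well above background in TRAMP after TmT. Its C57BL/6 array after TmT was the highest by this probe, 1.33 above oil, while a second probe gave 0.09. The third was not well above background in C57BL/6 after TmT. Both of these other probes were highest in TRAMP after oil, 1.46 and 3.06 above C57BL/6 after oil, against 0.97 by the brightest. The highest array for Acvr1c thus depended on the probe.

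Among the proteins of the lipid droplet, Cidec had the largest line difference after oil of the 31 genes measured. Cidec, which promotes droplet fusion, had levels of 0.31 in C57BL/6 after oil, 1.01 in C57BL/6 after TmT, 3.81 in TRAMP after oil and 0.44 in TRAMP after TmT. TRAMP after oil was 3.50 ± 0.20 above C57BL/6 after oil, and TmT went with opposite directions in the lines, 0.70 ± 0.20 in C57BL/6 and -3.37 ± 0.20 in TRAMP mice. Its probe lies at chr6:113374693-113374752 (mm9).

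Plin, the coat protein perilipin of adipocyte droplets, had levels of -1.18, -0.79, 1.08 and -1.01 in the same order of groups. Again 3 arrays lay within a narrow range and TRAMP after oil stood apart, 2.27 above C57BL/6 after oil and 2.09 above TRAMP after TmT, a TmT difference of -2.09. S3-12 (Plin4), a perilipin of small droplets, had levels of 2.57, 3.03, 3.50 and 3.38, a difference after oil of 0.93 and a TmT difference in TRAMP mice of -0.12. Lgals12, a galectin of droplets, was measured on the oil arrays only, at -4.70 and -2.77, and in TRAMP mice was at least 1.69-fold lower after TmT.

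The genes of uptake and transport were split. Fabp4, the fatty acid carrier of adipocytes and macrophages, had levels of 5.17 in C57BL/6 after oil, 4.02 in C57BL/6 after TmT, 7.59 in TRAMP after oil and 4.00 in TRAMP after TmT. Levels after TmT were the lowest in both lines and differed between them by -0.02 ± 0.20, after 2.42 ± 0.20 on the oil arrays. Lpl, the lipase that frees fatty acids from lipoproteins, had levels of 1.69, 1.48, 3.18 and 1.09, and Acsl1, which activates fatty acids with coenzyme A, had 4.09, 3.81, 4.57 and 4.05. The difference after oil was thus 1.49 for Lpl and 0.48 for Acsl1.

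Slc2a4, the insulin-responsive glucose carrier GLUT4 of fat and muscle, ran the other way. Its levels were 3.07 in C57BL/6 after oil, 2.82 in C57BL/6 after TmT, 2.34 in TRAMP after oil and 3.02 in TRAMP after TmT, so that TRAMP after oil was the lowest array. Each value is the mean of 10 spots. The 10 skeletal muscle markers on the array were all lower in TRAMP mice after oil, with a median of -0.92 (from -2.61 for Mylpf to -0.31 for Myh1), and their summed level was 419 there against 690 to 733 on the other arrays. Their part in the Slc2a4 value was not tested.

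Aqp7, the glycerol channel of adipocytes, had levels of -3.02, -2.51, -1.89 and -2.76 by its brighter probe, a difference after oil of 1.13. Its dimmer probe was well above background in C57BL/6 after TmT alone, at -2.87, at least 3.60-fold above C57BL/6 after oil. The highest array for Aqp7 thus depended on the probe. Tusc5 (Trarg1), a partner of GLUT4 traffic in fat, was well above background on TRAMP after oil alone, at -3.49. It was at least 2.55-fold higher there than in C57BL/6 after oil and at least 1.03-fold higher than in TRAMP after TmT.

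Triglyceride synthesis genes were higher in TRAMP mice after oil for 4 of 4 measured, 3 of them at least 2-fold. Dgat2, an acyltransferase of the last step, had levels of -0.10 in C57BL/6 after oil, 0.04 in C57BL/6 after TmT, 2.02 in TRAMP after oil and 0.25 in TRAMP after TmT. Dgat1, the other enzyme of that step, had -0.88, -0.86, -0.15 and -1.05, so both enzymes were highest on the same array by these probes, with differences after oil of 2.11 and 0.73. The second probe of Dgat1 was highest in C57BL/6 after TmT, at -0.78, with 0.29 between the lines after oil and 0.02 for TmT in TRAMP mice. Gpd1, which makes glycerol phosphate, had 3.20, 3.11, 4.71 and 3.05. Agpat2, an acyltransferase mutated in a congenital lipodystrophy, had -3.28, -3.73, -1.46 and -2.82. By its brightest probe Agpat2 was higher on both TRAMP arrays, by 1.82 after oil and by 0.90 after TmT. The 3 other enzymes had line differences between -0.19 and 0.21 after TmT by their brightest probes. This contrast depended on the probe. After TmT the other probes gave 0.45 ± 0.43 for Agpat2, 0.72 and -0.22 for Dgat2, -0.54 for Gpd1 and -0.34 for Dgat1.

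Lipolysis was represented by a pair of lipases. Pnpla2, adipose triglyceride lipase, had levels of 1.76 in C57BL/6 after oil, 2.27 in C57BL/6 after TmT, 3.02 in TRAMP after oil and 2.42 in TRAMP after TmT, with 1.26 between the lines after oil. Lipe, hormone-sensitive lipase, had levels of -0.64, -0.50, 1.04 and -0.81, with 1.69 between the lines after oil and a TmT difference of -1.85 in TRAMP mice. For Lipe the second probe gave 0.56 after oil, and the signal before the scanner software's multiplicative detrending gave 0.42 after oil and -0.61 after TmT in TRAMP mice, both under 2-fold.

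Of the fatty acid synthesis genes, 3 of 5 measured (Scd1, Fasn and Acly) were at least 2-fold higher in TRAMP mice after oil. Scd1, the desaturase that makes oleate, had levels of 4.09 in C57BL/6 after oil, 3.34 in C57BL/6 after TmT, 6.42 in TRAMP after oil and 2.85 in TRAMP after TmT. It was 2.32 higher in TRAMP mice after oil and the TmT difference in TRAMP mice was -3.57. Fasn, fatty acid synthase, had 0.74, 0.56, 3.02 and 1.97 by its brighter probe. By that probe both TRAMP arrays lay above both C57BL/6 arrays, by 2.28 after oil and 1.41 after TmT. Its dimmer probe had -2.52, -3.12, -0.72 and -2.94. The line difference by the dimmer probe was 1.80 after oil and 0.18 ± 0.31 after TmT. Acly, which makes cytosolic acetyl-CoA from citrate, had 2.75, 3.06, 4.11 and 4.24 by its brighter probe, with both TRAMP arrays above both C57BL/6 arrays.

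The line differences for Acly were 1.35 after oil and 1.18 after TmT, and TmT made a difference of 0.14 in TRAMP mice. Acaca, the carboxylase that makes malonyl-CoA, had -0.41, -1.10, -0.29 and -0.09 by its brightest probe, a difference of 0.11 after oil, whereas its 3 other probes gave 1.31 to 2.49. Those 3 probes were highest in TRAMP after oil and gave -1.24, -0.98 and -1.62 for TmT in TRAMP mice, against 0.21 by the brightest, so the direction for Acaca depended on the probe. Elovl6, the elongase of palmitate, had 0.94, 0.59, 0.97 and 0.82, a difference of 0.03 after oil. Before the detrending Elovl6 gave -0.70 after oil and 1.19 for TmT in TRAMP mice, so no direction is given. The 4 genes at least 2-fold higher in TRAMP mice after TmT were Cfd, Acly, Acaca and Fasn, and 3 of these are fatty acid synthesis genes. Normexp background correction put 3 of them under 2-fold, with 0.94 for Cfd, 0.82 for Acly and 0.59 for Acaca. The mean over both probes of Fasn was 0.80 after TmT, and the dimmer probe of Acly was not well above background in TRAMP after TmT.

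A pair of other adipocyte genes completes the set. Car3, a carbonic anhydrase abundant in white fat and in muscle, had levels of 2.57 in C57BL/6 after oil, 2.32 in C57BL/6 after TmT, 3.57 in TRAMP after oil and 2.29 in TRAMP after TmT by its brighter probe. The line difference by that probe was 0.997 after oil and -0.03 after TmT, against 1.67 and -1.20 by the dimmer probe. For TmT the brighter probe gave -0.25 in C57BL/6 and -1.28 in TRAMP mice, and the dimmer 0.40 and -2.47. Sncg, γ-synuclein, which is found in adipocytes and in peripheral neurons, had -0.58, -0.33, -1.24 and -1.01. Sncg was lower on both TRAMP arrays, by -0.66 after oil and -0.68 after TmT, both under 2-fold, and was with Slc2a4 the exception among the 31 genes measured after oil.

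**Figure D2:**
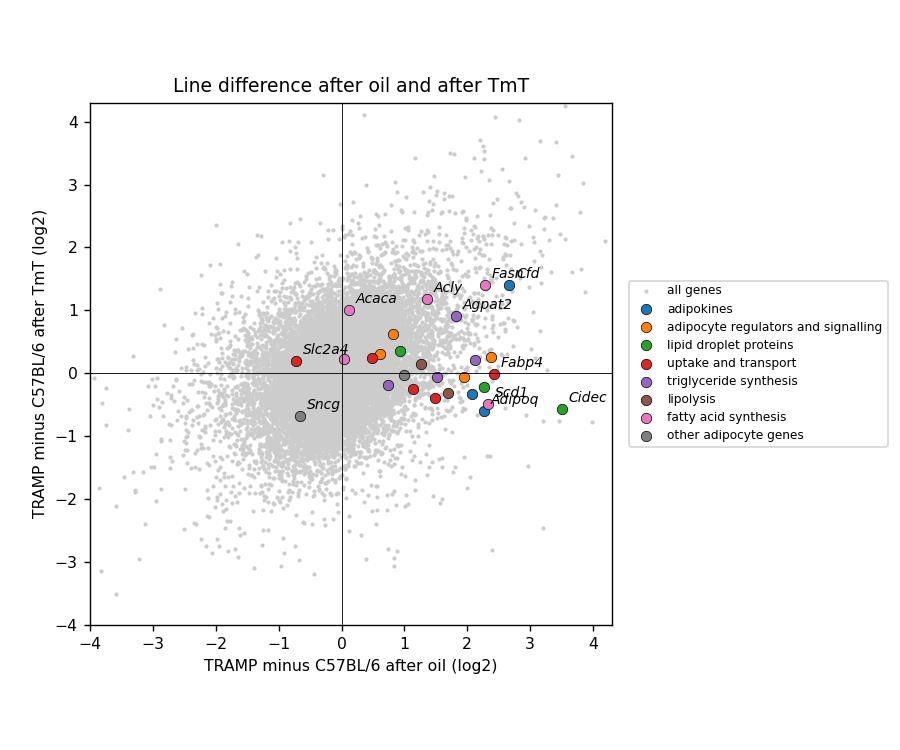
Line difference (TRAMP minus C57BL/6, log2) after oil on the horizontal axis and after TmT on the vertical axis, for the 28 genes above background on all 4 arrays (coloured by role) and for 16961 genes (grey; points beyond the axes are not shown). Cidec, Adipoq, Scd1 and Fabp4 lie far to the right and near or below 0 on the vertical axis, while Cfd, Fasn, Acly, Acaca and Agpat2 lie at 0.90 or above after TmT.

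The TmT difference in TRAMP mice minus that in C57BL/6 mice was taken for the 28 genes above background on all arrays, as a description with no test. Its median was -1.19 and it was below 0 for 25 of 28, where the median of all genes was 0.06 and 46.1% were below 0. The lowest values were -4.07 for Cidec, -2.88 for Adipoq and -2.81 for Scd1. The genes above 0 were Slc2a4 at 0.93, Acaca at 0.90 by its brightest probe, and Elovl6 at 0.19. Elovl6, Sncg (-0.02), Acly (-0.17) and Acsl1 (-0.25) lay within 0.29, the median spot error of such a value.

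Where a gene had several probes above background on both arrays, they mostly pointed the same way. After oil the probes of 15 of 16 such genes shared a sign, Cebpa being the exception, and the median range within a gene was 0.68. For TmT in TRAMP mice 10 of 12 genes did so, with a median range of 1.05. Within Fabp4 the 3 probes gave 2.42, 1.10 and 2.29 after oil, and within Dgat2 2.11, 1.00 and 2.46. For TmT in TRAMP mice the measured probes of Fabp4 gave -3.59 and -1.61, and the dimmest was not well above background after TmT. After oil the probes of Acly (range 0.10), Lpl (0.11), Pnpla2 (0.14) and Gpd1 (0.20) lay within about the spot error of each other, and those of the 12 other genes lay farther apart.

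**Figure D3:**
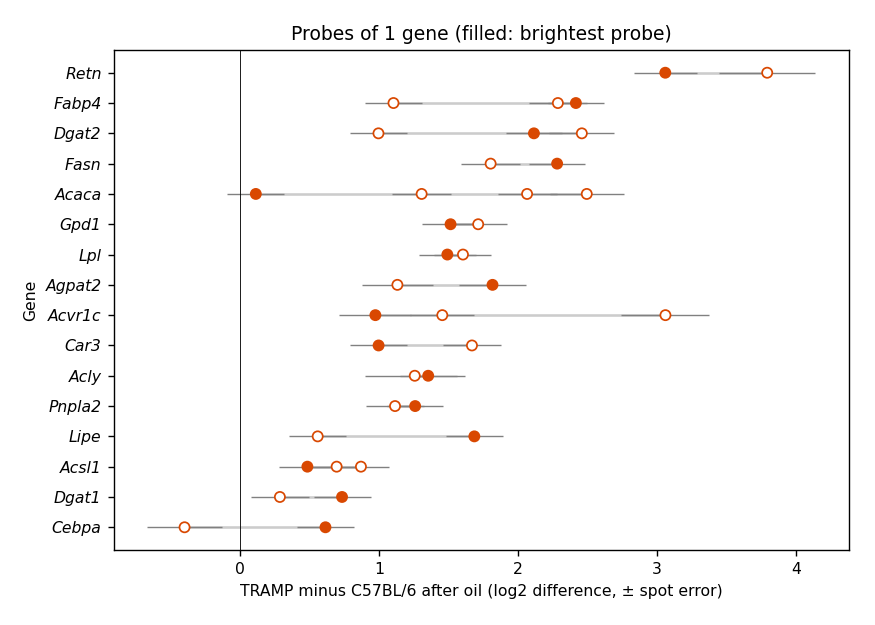
Line difference after oil (TRAMP minus C57BL/6, log2, with the spot error as bars) for each probe of the 16 genes with at least 2 probes measured on both arrays; the filled circle is the brightest probe, used in the text. The probes of 15 genes lie on the right of 0, and those of Cebpa lie on both sides. Acaca and Acvr1c have the widest ranges, 2.38 and 2.09.

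Genes of the same pathways outside the set were listed as well: 58 genes, 52 of them on the array, with 49 measured after oil. A difference of 2-fold or more was found upward in TRAMP mice for 7 and downward for 2, and the median was 0.11. The shares of all genes were 7.74% upward and 7.84% downward. The highest were Hp (haptoglobin) at 2.39, Agpat9 (an acyltransferase of glycerol phosphate) at 1.33 and Adfp (Plin2, a perilipin of most cell types) at 1.25. The lowest were G0s2 (an inhibitor of adipose triglyceride lipase) at -1.49, Lepr (the leptin receptor) at -1.14 and Ptrf (cavin-1 of caveolae) at -0.93. Gpam, an acyltransferase of glycerol phosphate that was named after its values were seen, was not well above background in TRAMP after oil, where it was at least 3.96-fold lower than in C57BL/6. In TRAMP mice it was at least 4.72-fold higher after TmT, opposite to most of the members. After TmT in TRAMP mice, 8 of 47 were at least 2-fold lower and 2 higher, with a median of -0.01. Of all genes, 4.86% were lower and 8.66% higher in that comparison.

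Some brown fat markers showed the same order of arrays. Ucp1, the uncoupling protein of brown fat, had levels of -2.60 in C57BL/6 after oil, -3.21 in C57BL/6 after TmT and 1.58 in TRAMP after oil, and was not well above background in TRAMP after TmT. It was 4.18 higher in TRAMP mice after oil and in them at least 34.4-fold lower after TmT. Elovl3, an elongase of brown fat and of sebaceous glands, was well above background on TRAMP after oil alone, at least 25.1-fold above C57BL/6 after oil, and Slc27a2, a fatty acid carrier, was likewise at least 4.01-fold higher.

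Cidea, a droplet protein of brown fat, was 2.37 higher in TRAMP mice after oil and had a TmT difference of -3.36 in them. Other brown fat markers differed after oil by 1.90 (Gyk), 1.77 (Otop1), 1.28 (Ppara), 0.64 (Letmd1), 0.13 (Ppargc1a), 0.10 (Dio2), -0.03 (Prdm16), -0.82 (Cpt1b), -0.996 (Cox7a1) and -1.04 (Fabp3). Thus 5 of 12 measured markers exceeded 2-fold upward and 1 downward, against 7.74% and 7.84% of all genes, and their median was 0.39. The summed level of the 14 brown fat markers on the array was 50.7, 46.4, 39.7 and 34.5, in the order C57BL/6 oil, C57BL/6 TmT, TRAMP oil and TRAMP TmT, against 132, 103, 473 and 124 for the 33 white adipocyte and lipid storage genes. Of the 33 genes, Fabp4 (7.59) and Scd1 (6.42) had the highest levels in TRAMP after oil, so the white adipocyte sum there leans on these probes. Cox7a1, which muscle also expresses, had the largest share of the brown fat sum on each array, so this brown fat sum does not follow Ucp1, Cidea or Elovl3. Whether brown fat in the sample contributed to the values of these genes was not tested.

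Markers of other cells were mostly lower on the TRAMP array after oil. The median was -0.65 for 11 preadipocyte and fibroblast markers (from -2.36 for Dcn to 0.42 for Dpp4), -0.96 for 8 endothelial markers (from -1.34 for Cdh5 to -0.14 for Pecam1) and -0.40 for 10 macrophage markers (from -0.69 for Mrc1 to 0.68 for Cd14). It was -0.84 for 14 prostate luminal and secretory markers (with the lowest, Mmp7, at -5.12), -0.18 for 8 smooth muscle markers (from -1.11 for Acta2 to 0.61 for Actg2) and 0.17 for 7 seminal vesicle markers (from -0.90 for Svs2 to 0.79 for Sva). Of 6 liver markers on the array 2 were measured on both oil arrays, Apoa1 at -0.26 and Cyp2e1, which fat also expresses, at 3.21. The summed level of the prostate markers was 1800, 2352, 989 and 1673 in the order of groups given above, and that of the fibroblast markers 157, 133, 80.4 and 138. The part of these shifts in the values of the white adipocyte genes was not tested.

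**Figure D4:**
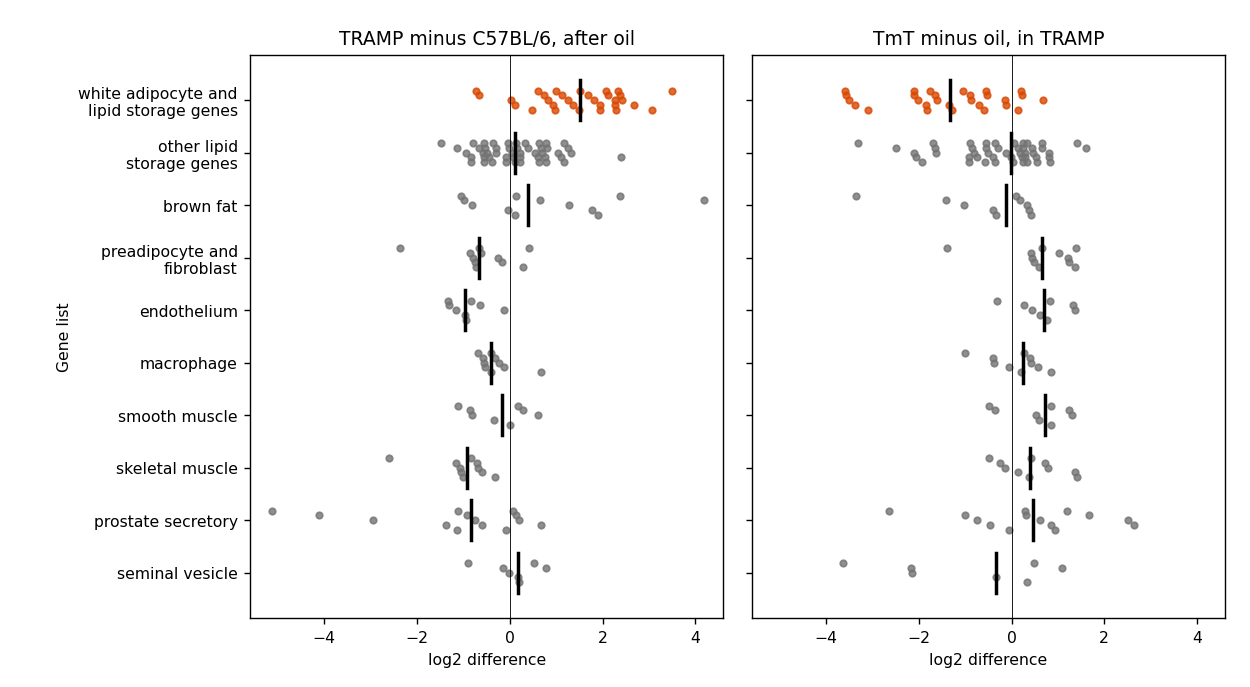
Difference of each gene measured on both arrays (points, log2) by list, with the median of the list as a bar, for TRAMP minus C57BL/6 after oil (left) and TmT minus oil in TRAMP mice (right); both panels use the array of TRAMP mice after oil. The white adipocyte and lipid storage genes have a median of 1.51 on the left and -1.32 on the right, and the endothelial markers -0.96 and 0.70.

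A fit of genotype and treatment to all 4 arrays, with limma over 19921 genes above background on at least 2 arrays, left 1 residual degree of freedom, that of the interaction. In this fit 0 of the 31 members tested were called for genotype at an adjusted p under 0.05, and 0.136% of all genes were called. At an unadjusted p under 0.05, limma gave 4 of 31 members for genotype, or 12.9%, all higher in TRAMP mice, against 15.1% of all genes. They were Fasn at 1.85 ± 0.37 (SE, limma adjusted p = 0.128), Cfd at 2.03 ± 0.42 (0.137), Acly at 1.27 ± 0.32 (0.184) and Agpat2 at 1.36 ± 0.38 (0.209).

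For treatment the limma fit called 0 of the 31 members and 0 of all genes, a share of 0%. At an unadjusted p under 0.05 it gave 6 members, 19.4%, against 6.28% of all genes. All 6 were lower after TmT: Retn, Fabp4, Scd1, Thrsp, Adipoq and Lgals12. Of these, Retn and Lgals12 were well above background on the oil arrays alone. They passed the filter only through the arrays where they were high, so their estimates are not support. For treatment the lowest adjusted p of a member by limma was 0.770. The median standard error of the members was 0.44, against 0.34 for all genes, and the interaction enters the residual of this fit.

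After oil, normexp background correction gave a median of 1.17 in place of 1.51 and put Lgals12 (0.45), Agpat2 (0.76), Aqp7 (0.47) and Lipe (0.28) under 2-fold. It also gave 1.49 for Retn, 1.12 for Mrap and 1.36 for Rbp4. For TmT in TRAMP mice it gave a median of -0.91 and put Mrap (-0.44), Agpat2 (-0.12) and Lipe (-0.25) under 2-fold, with -2.65 for Adipoq, -1.80 for Thrsp and -1.10 for Rbp4, and turned Aqp7 to 0.12. Before detrending, Fabp4 gave -2.93 for TmT in TRAMP mice. The mean over all probes put Acaca (1.49), Acvr1c (1.83) and Car3 (1.33) over 2-fold after oil, and Pnpla2 (-1.23) over 2-fold lower for TmT in TRAMP mice.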

How the data were processed

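The authors' scanner files hold 1 linear intensity per spot, processed by Agilent Feature Extraction 10.2.1.3, per the file headers, with background subtraction and spatial detrending inside each array. Its multiplicative detrending had changed the signal on each array except TRAMP after TmT. The log2 change had a standard deviation over spots of 0.39 on TRAMP oil, 0.16 on C57BL/6 oil and 0.09 on C57BL/6 TmT. TRAMP after oil was thus changed most. Before the detrending, the member medians were 1.51 between lines after oil and -1.19 for TmT in TRAMP mice. The deposited value table held the same processed intensity as the scanner files for all 45018 features of each array, so it is linear and not centred, with medians of 30.2 (C57BL/6 oil), 21.3 (C57BL/6 TmT), 25.3 (TRAMP oil) and 13.8 (TRAMP TmT). Probe positions are on mm9, per the file headers. Transcript parts under the probes were not annotated.

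Control spots and spots marked as outliers (131, 207, 348 and 178) were left out, and 0 spots were saturated. Intensities were divided by the 75th percentile of their array (161, 118, 139 and 71.3), taken to log2 and averaged over the spots of a probe. All arrays shared 1 scan time, and each had a different slide position. Position and group cannot be told apart. Calls of at least 2-fold needed a signal well above background on both arrays. The additive fit used limma 3.58.1 in R 4.3.3 with eBayes and Benjamini-Hochberg adjustment over all genes, and was tested on simulated data.

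The alternatives were quantile normalization, the percentile over probes above background on all arrays, normexp with an offset of 50 (for 19 spots on each TmT array the local background, over 2 times the array's median, was replaced by that median, a step chosen after seeing the data), the signal before multiplicative detrending, the mean over all probes, no background filter, the deposited table, a 3-fold threshold, and robust eBayes with a trend. The members and gene lists were chosen with earlier results of these data known. The text gives each member, the 3 highest and 3 lowest other pathway genes after oil, each brown fat marker, and the highest and lowest gene of each other marker list, except 1 gene that is not reported here. RefSeq names of Plin, S3-12 and Tusc5 were looked up in the reference table.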

Additional observations from a re-analysis of the deposited data

Results flagged for a closer look

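Differences of opposite sign under the same contrast, each over 2 spot errors in size, were found for 4 of 28 genes between the lines and for 4 of 28 between the treatments. The line difference was 2.27 after oil and -0.61 after TmT for Adipoq, 3.50 and -0.57 for Cidec, 2.32 and -0.49 for Scd1, and -0.73 and 0.19 for Slc2a4, which with normexp gave -0.82 and -0.02. The TmT difference was 0.70 in C57BL/6 and -3.37 in TRAMP mice for Cidec, 0.51 and -0.88 for Aqp7 (0.12 in TRAMP mice with normexp), 0.51 and -0.60 for Pnpla2, and -0.25 and 0.68 for Slc2a4. The dimmer probe of Pnpla2 gave 0.02 in C57BL/6 and -1.87 in TRAMP mice. Each value rests on 1 array per group, and whether the 2 differences of a gene differ was not tested.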

How the results depend on the processing

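The number of arrays, 1 per group, limits each value here, and no array could be left out without losing its group. No paired analysis was possible because each group has 1 array and the labels carry no shared replicate numbers. Summaries of the members kept their value, or a count within 1.5 times, in most settings, and the exceptions follow; their cause was not tested. Normexp gave medians of 1.17 between lines after oil, -0.91 for TmT in TRAMP mice and -0.86 for the difference of these differences; it left 1 gene at least 2-fold higher between lines after TmT and, for TmT in C57BL/6 mice, 0 higher and 1 lower. Before multiplicative detrending, 1 gene was lower for TmT in C57BL/6 mice and 1 (Elovl6) higher in TRAMP mice. The mean over all probes gave medians of -0.22 between lines after TmT, -1.63 for TmT in TRAMP mice and -1.50 for the difference of differences; 2 genes were higher and 1 lower between lines after TmT, 1 was lower for TmT in C57BL/6 mice, and Acvr1c gave -0.19 there, a mean that includes a probe not well above background after TmT, while its 2 measured probes gave 0.09 and 1.33. Without the background filter 1 gene was lower between lines after TmT. At 3-fold, 0 genes were higher between lines after TmT and 0 were higher or lower for TmT in C57BL/6 mice; 15 of 31 stayed higher between lines after oil and 13 of 28 lower for TmT in TRAMP mice. The limma genotype fit called 27 genes of all; it called 0 with quantile normalization, the other percentile, the signal before detrending or the mean of probes, 1389 with normexp and 355 with robust eBayes, of which 11 and 2 were members. The treatment fit called 0, but 341 with normexp, 9 of them members, and 1 with robust eBayes. With normexp, limma gave every gene the same standard error, 0.26, in both fits. A gene's own residual thus did not enter, and the calls with normexp are not support. Under the array scalings the share of higher among all 2-fold calls after oil was 49.7%, or 55.7% with quantile normalization and 39.4% with normexp, and between lines after TmT 58.1%, or 28.0% with normexp; for TmT in C57BL/6 mice it was 54.3%, or 68.5% with normexp and 42.3% without the filter. The median of all genes was 0.15 with normexp and 0.21 without the filter for TmT in TRAMP mice.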
